A study of Mus musculus with 12 samples.

Results

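A set of 10 genes was followed across 12 mouse pre-B cell lines. They are the transcription factor gene *Atf4*, 3 genes of its feedback and stress output (*Ddit3*, *Trib3* and *Chac1*), the asparagine synthetase gene *Asns* and 5 genes of serine synthesis and the folate cycle (*Phgdh*, *Psat1*, *Psph*, *Shmt2* and *Mthfd2*). They were chosen by name as ATF4 targets of amino acid stress, serine and one-carbon metabolism, with earlier results of these data known. Their shares beside those of all tested genes are therefore a description. They make up 10 of the 51826 genes in the count table. All lines came from cultured bone marrow of 2 wild-type C57BL/6 mice, kept with IL7 for 7 days and labelled as pro-/pre-B cells. Cells of each mouse were transduced with the retroviral vector pMIG, either empty (EV, 3 lines per mouse) or carrying BCR-ABL1, a fusion tyrosine kinase that arises from the Philadelphia translocation (3 lines per mouse), and stayed in IL7 medium for 48 h. IL7 was then removed from the BCR-ABL1 lines for 1 week, whereas the EV lines stayed in IL7 for a similar time and were sorted for GFP. BCR-ABL1, loss of IL7 and the missing sort therefore coincide and cannot be told apart here, and "BCR-ABL1 against EV" stands for all of them. Lines are named by mouse and letter, so EV 2C is EV line C of mouse 2.

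ATF4 is a bZIP transcription factor of the integrated stress response. When amino acids run short or proteins misfold, kinases such as GCN2 and PERK phosphorylate the initiation factor eIF2α, general translation falls and the *Atf4* mRNA is translated more. ATF4 then turns on genes that make, import and load amino acids, and its mRNA level alone does not report this translational step. In the serine pathway, PHGDH, PSAT1 and PSPH convert the glycolytic intermediate 3-phosphoglycerate into serine in successive steps, and SHMT2 and MTHFD2 pass its side-chain carbon into the mitochondrial folate cycle, which feeds purine synthesis. Proliferating lymphoid cells are known to draw on this pathway.

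ATF4 binds, usually as a heterodimer with a C/EBP protein, to composite elements that join a C/EBP site to an ATF site. The letters TGATGNAA, read on both strands, were therefore searched in RefSeq promoter windows of GRCm38.p6, from 250 bases before to 50 bases after each start. The element was found in 3.97% of the 32851 windows of all genes, and all 10 genes had at least 1 window. *Trib3*, *Chac1* and *Asns* held it. The related letters TGACGNAA, without overlap with the first motif, were found in 1.59% of all windows and, among the 10 genes, in *Chac1*. The 4 matches are printed with their surroundings because they lie in the promoters of the 3 genes with the largest fold changes between the conditions. Each is given on the strand of its gene with the motif, or its reverse complement, in capitals.
Trib3, chr2:152344028-152344057, minus strand: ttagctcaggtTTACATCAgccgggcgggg
Chac1, chr2:119351038-119351067, plus strand: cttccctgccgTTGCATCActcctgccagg
Chac1, chr2:119350992-119351021, plus strand: TGACGCAAtctgactcgcccttgctgcatg
Asns, chr6:7693214-7693243, minus strand: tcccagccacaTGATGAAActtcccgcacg
The *Trib3* motif spans bases 14 to 21 after the RefSeq start, and the 2 *Chac1* motifs lie upstream, at -193 to -186 and -250 to -243. The *Asns* motif is at -23 to -16. Counted from the GENCODE starts, the *Trib3* motif is at -14 to -7 and the *Asns* motif at 22 to 29. A match is a description of the letters and not evidence of binding, and nothing follows from the windows that held none.

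The total count of a line was 34791011 to 64547911 for EV and 45230023 to 66011225 for BCR-ABL1. The 7 B lineage markers used here (*Cd79a*, *Cd79b*, *Pax5*, *Ebf1*, *Vpreb1*, *Igll1* and *Rag1*) together reached at least 1926 CPM in every line. CPM is the count of a gene scaled to a common library size. Summed CPM did not exceed 1.69 for 8 myeloid, 3.68 for 6 T and NK, 12.7 for 5 erythroid and 1.47 for 5 stromal markers. The 4 plasma cell markers summed to between 190 and 323 in EV and between 218 and 244 in BCR-ABL1 lines. Most of this sum was *Mzb1* (176 to 271 CPM). *Jchain*, which joins secreted antibody chains, was at 0.246 to 2.52 CPM in EV and 8.42 to 10.1 in BCR-ABL1 lines, and *Prdm1*, a regulator gene of plasma cells, at 3.81 to 30.5 in EV and 0.828 to 1.25 in BCR-ABL1 lines. Neither overlapped between the conditions, and their part in the results was not tested. The EV lines of mouse 2 stood apart from each other. *Rag1*, a recombinase gene of B cell precursors, was at 90.04 CPM in EV 2A and 147 in EV 2B against 14.5 in EV 2C, and between 24.2 and 49.9 in all other lines. *Cd79b*, which encodes a chain of the pre-B cell receptor complex, was at 668, 963 and 299 CPM in the same 3 lines and between 292 and 359 in the others. Other markers of that list split the lines otherwise. *Ebf1* was at 339 CPM in EV 2C and between 459 and 544 in the other EV lines. *Vpreb1* and *Igll1* were lowest in the EV lines of mouse 1, at most 230 and 219 CPM, against at least 398 and 349 in all other lines. In these bulk RNA samples, fewer cells with an mRNA and less of it per cell cannot be told apart. Some of the results that rest on EV 2C are also given without it. For the 10 genes over both animals these are mainly the ones whose call changed. EV 2C is the highest EV line for 7 of the 10 genes, and leaving it out raises their differences by construction. Calls gained without EV 2C are therefore a description only.

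All 10 genes were among the 15038 that passed the filter on low counts. CPM values are scaled by TMM, and BCR-ABL1 was compared with EV by edgeR's glmTreat, which asks whether a change exceeds 1.5-fold, at an FDR of 0.05 over all tested genes. In BCR-ABL1 lines 4 of the 10 genes rose (*Trib3*, *Chac1*, *Asns* and *Psat1*) and 0 fell, where 5.99% of all tested genes were called higher and 6.49% lower. Against no change rather than 1.5-fold, 7 genes were called higher (also *Atf4*, *Phgdh* and *Psph*), and that test called 22.5% of all tested genes higher and 25.9% lower. The log2 fold change was positive for 9 of the 10 genes, with a median of 0.85, beside a median of -0.02 over all tested genes. The same 4 genes were those whose 6 BCR-ABL1 lines all lay above the 6 EV lines, a separation that 12.1% of all tested genes showed upwards.

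**Figure D1:**
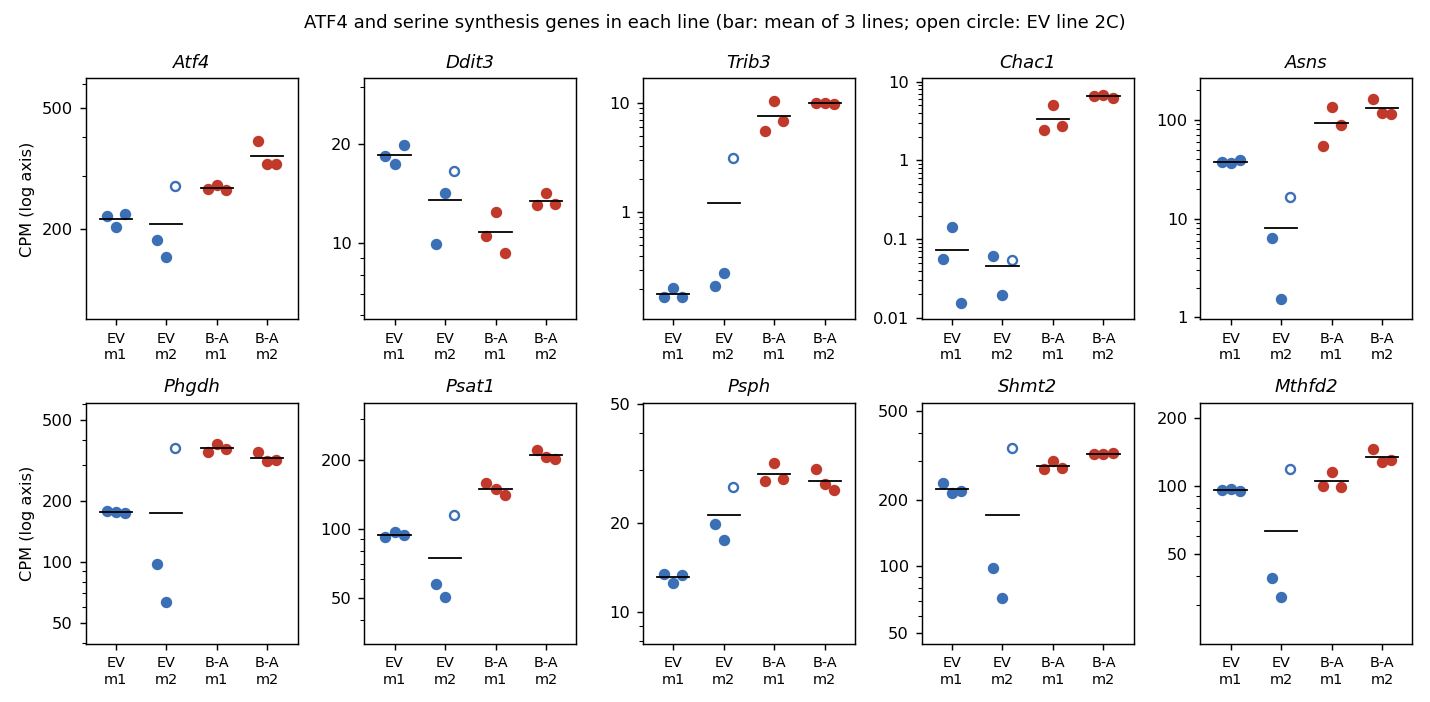
CPM of each gene (log axis, range set per gene) in the EV lines of mouse 1 and mouse 2 (EV m1, EV m2; blue) and the BCR-ABL1 lines of the same mice (B-A m1, B-A m2; red). Points are lines, bars are means of 3 lines and the open circle is EV 2C. *Trib3*, *Chac1*, *Asns* and *Psat1* do not overlap between the conditions, and EV 2C is the highest EV line for 7 of the genes.

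*Atf4* itself (ENSMUSG00000042406, chr15:80255184-80257541, plus strand, GRCm38) was among the more abundant of these mRNAs in both conditions. It was at 221, 203 and 224 CPM in EV lines of mouse 1 and at 184, 162 and 278 in those of mouse 2. BCR-ABL1 lines had 271, 280 and 268 CPM in mouse 1 and 390, 326 and 328 in mouse 2. All EV lines but EV 2C were below every BCR-ABL1 line, and EV 2C overlapped with the BCR-ABL1 lines of mouse 1. The difference was 0.55 on the log2 scale (SE 0.14, n = 6 lines per condition), which did not pass the 1.5-fold test of edgeR's glmTreat (FDR = 0.881). The difference of the means was larger than most relabelings of the lines gave (two-sided exact permutation p = 0.00649, smallest possible 0.00216).

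*Ddit3* (ENSMUSG00000025408, chr10:127290774-127296288, plus strand) encodes CHOP, a transcription factor that is induced by ATF4 under prolonged stress. It was the one gene of the 10 with a negative difference. EV lines had 18.5, 17.4 and 19.9 CPM in mouse 1 and 9.91, 14.2 and 16.6 in mouse 2. BCR-ABL1 lines had 10.5, 12.5 and 9.34 CPM in mouse 1 and 13.0, 14.2 and 13.2 in mouse 2. The mouse 1 groups did not overlap, with EV above BCR-ABL1, whereas the mouse 2 groups did. Its log2 fold change was -0.41 (SE 0.18, glmTreat FDR = 1, exact permutation p = 0.0519). By mouse it was -0.79 (SE 0.13, glmTreat FDR = 0.171) and -0.01 (SE 0.22, glmTreat FDR = 1). A fit to the mouse 1 lines alone called *Ddit3* lower (-0.78, glmTreat FDR = 0.0498). Exons of *Ddit3* share 68 bases with *Mars* on the opposite strand (3.97% of its exon length), and the strand setting of the counting is not given in the sources used here. A further 105 bases (6.13%) are shared on the same strand with another gene identifier of the symbol *Ddit3*, which is not used here.

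*Trib3* (ENSMUSG00000032715, chr2:152337422-152344032, minus strand) encodes a pseudokinase that ATF4 and CHOP induce and that in turn restrains them. It was nearly silent in 5 EV lines, at 0.169, 0.202 and 0.169 CPM in mouse 1 and 0.215 and 0.278 in EV 2A and 2B. The sixth, EV 2C, had 3.14 CPM (174 counts against 7 to 14 in the other EV lines). BCR-ABL1 lines had 5.56, 10.4 and 6.79 CPM in mouse 1 and 9.88, 9.99 and 9.73 in mouse 2. *Trib3* was thus present in every BCR-ABL1 line at a level above EV 2C. On the log2 scale its fold change was 3.64 (SE 0.65, glmTreat FDR = 0.0101, exact permutation p = 0.00216). It came to 5.39 without EV 2C (glmTreat FDR = 2.81e-07), its highest EV line, whose removal raises the difference by construction.

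*Chac1* (ENSMUSG00000027313, chr2:119351229-119354381, plus strand) encodes a γ-glutamylcyclotransferase that degrades glutathione and is a known readout of ATF4 activity. It showed the widest relative difference of the 10 genes. EV lines held 3, 10 and 1 counts in mouse 1 and 2, 1 and 3 in mouse 2, and BCR-ABL1 lines held 145, 239 and 120 and then 340, 453 and 303. In CPM this was at most 0.144 in EV lines, and 2.46, 4.995 and 2.73 in BCR-ABL1 lines of mouse 1 and 6.55, 6.89 and 6.29 in those of mouse 2. EV 2C, at 0.0541 CPM, did not share its *Trib3* signal for *Chac1*. The ratio of summed counts, scaled to depth, was 82.3 (95% interval 53.1 to 135, which covers counting error only). The fitted log2 fold change of 6.32 (SE 0.38, glmTreat FDR = 9.32e-06, exact permutation p = 0.00216) depends on the prior count at such low EV counts.

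*Asns* (ENSMUSG00000029752, chr6:7675169-7693254, minus strand) makes asparagine from aspartate and is a classical target of the amino acid response. In EV lines of mouse 1 it was at 37.1, 36.8 and 39.0 CPM. In EV lines of mouse 2 it was lower, at 6.35, 1.53 and 16.4 CPM. BCR-ABL1 lines had 54.4, 134 and 88.3 CPM in mouse 1 and 164, 118 and 115 in mouse 2. All BCR-ABL1 lines were thus above all EV lines, and EV 2A, 2B and 2C were below every EV line of mouse 1. *Asns* had a log2 fold change of 2.29 (SE 0.80, glmTreat FDR = 0.0415, exact permutation p = 0.00216). Its call was close to the threshold: leaving out EV 1A, 2A or 2C or BCR-ABL1 1B, 1C, 2A, 2B or 2C raised the FDR to between 0.05002 and 0.0822.

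*Psat1* (ENSMUSG00000024640, chr19:15904678-15947337, minus strand) encodes the aminotransferase of the second step of serine synthesis, and was the one serine synthesis gene that passed the test. EV lines had 91.4, 96.1 and 93.6 CPM in mouse 1 and 57.5, 50.3 and 115 in mouse 2. BCR-ABL1 lines had 158, 148 and 140 CPM in mouse 1 and 221, 205 and 201 in mouse 2. The conditions did not overlap, and the highest EV line was EV 2C. *Psat1* had a log2 fold change of 1.09 (SE 0.22, glmTreat FDR = 0.0301, exact permutation p = 0.00216). Leaving out EV 2A or 2B or BCR-ABL1 2A, 2B or 2C raised the FDR to between 0.0511 and 0.0681, and DESeq2 gave 0.117.

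*Phgdh* (ENSMUSG00000053398, chr3:98313170-98339990, minus strand), whose enzyme commits 3-phosphoglycerate to serine, had a similar fold change but widely scattered EV lines. They were at 179, 177 and 174 CPM in mouse 1, and at 98.0, 63.3 and 363 in mouse 2. BCR-ABL1 lines were within a narrow range, at 349, 381 and 361 CPM in mouse 1 and 348, 314 and 318 in mouse 2. EV 2C was therefore among the BCR-ABL1 lines, while every other EV line was below them. *Phgdh* had a log2 fold change of 0.97 (SE 0.35, glmTreat FDR = 0.221, exact permutation p = 0.0130), and without EV 2C it was 1.32 (glmTreat FDR = 0.0118). As EV 2C is its highest EV line, the second value is larger by construction. In the genome 23 other genes match *Phgdh* over at least 150 bases at 90% identity or more, and the 18 of them in the table held at most 16 counts in a line. How reads shared with them were counted is not given in the sources used here.

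*Psph* (ENSMUSG00000029446, chr5:129765558-129787449, minus strand), the phosphatase of the last step, followed another pattern. EV lines of mouse 1 had 13.4, 12.5 and 13.4 CPM, and those of mouse 2 had 19.8, 17.5 and 26.3. BCR-ABL1 lines had 27.6, 31.6 and 28.1 CPM in mouse 1 and 30.2, 27.0 and 25.8 in mouse 2. The mouse 2 EV lines were above those of mouse 1, the reverse of *Asns*. The log2 fold change was 0.73 (SE 0.18, glmTreat FDR = 0.326, exact permutation p = 0.00433), and without EV 2C it was 0.89 (glmTreat FDR = 0.0223). Here too EV 2C is the highest EV line, so its removal raises the difference by construction. *Psph* shares 452 exon bases (10.4% of its exon length) with *Cct6a* on the opposite strand. *Cct6a*, a chaperonin subunit gene, was at 203 to 557 CPM in EV and 553 to 693 in BCR-ABL1 lines (log2 fold change 0.84, glmTreat FDR = 0.175), and without the strand setting its reads cannot be kept apart from those of *Psph*.

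*Shmt2* (ENSMUSG00000025403, chr10:127517123-127522444, minus strand) and *Mthfd2* (ENSMUSG00000005667, chr6:83305691-83325908, minus strand), which act in succession in the mitochondrial folate cycle, split the EV lines in the same way as *Phgdh*. *Shmt2* was at 239, 215 and 219 CPM in EV lines of mouse 1, at 98.4, 71.8 and 341 in those of mouse 2, and between 273 and 323 in BCR-ABL1 lines. *Mthfd2* was at 96.1, 96.7 and 94.9 CPM in EV lines of mouse 1, at 39.3, 32.4 and 119 in those of mouse 2, and between 99.0 and 145 in BCR-ABL1 lines. EV 2C was above the BCR-ABL1 lines for *Shmt2* and within their range for *Mthfd2*, and EV 2A and 2B were below all other lines for both. The log2 fold changes were 0.61 (SE 0.35, glmTreat FDR = 0.720) for *Shmt2* and 0.58 (SE 0.33, glmTreat FDR = 0.767) for *Mthfd2*, each with an exact permutation p of 0.0173. On total counts, without TMM, the exact permutation p was 0.0498 for *Shmt2* and 0.0823 for *Mthfd2*.

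**Figure D2:**
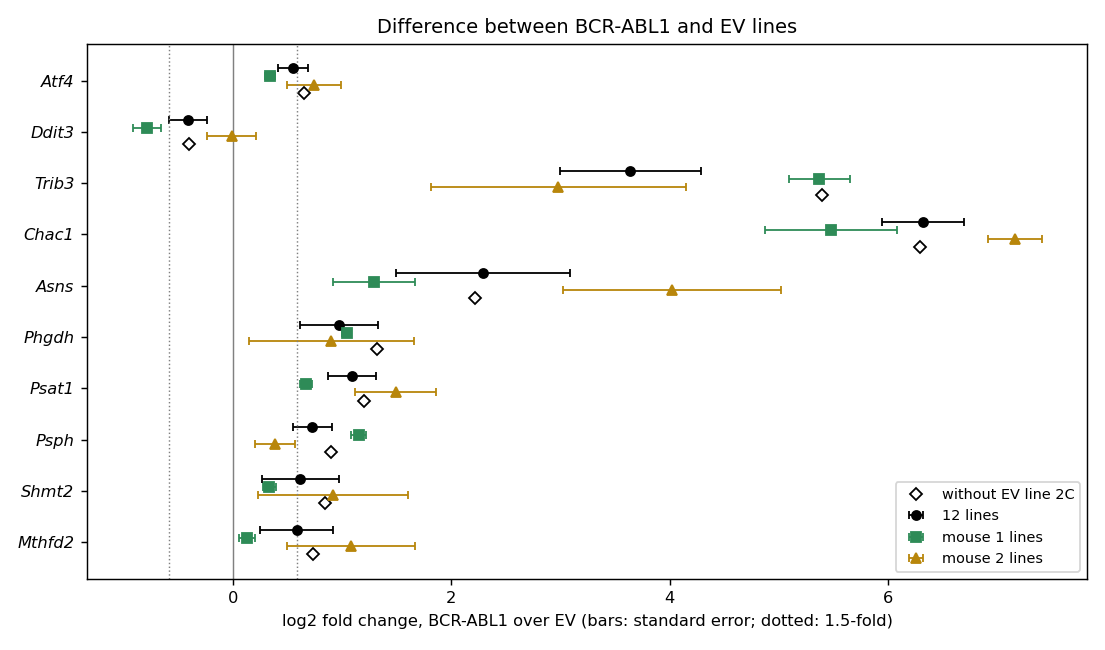
Log2 fold change of BCR-ABL1 over EV for each gene, over 12 lines (circles), within mouse 1 (squares) and within mouse 2 (triangles), with standard errors as bars. Open diamonds leave out EV 2C, and dotted lines mark a 1.5-fold change. *Chac1* and *Trib3* lie farthest to the right in every series except for *Asns*, which exceeds *Trib3* within mouse 2, and *Ddit3* is the one gene not above 0.

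Levels between genes were compared as TPM, that is, counts per exon length scaled to the same total in every line. In EV lines the mean level fell from *Atf4* (180 TPM), *Phgdh* (147) and *Shmt2* (133) over *Mthfd2* (48.0), *Psat1* (40.5), *Ddit3* (19.2), *Asns* (18.4) and *Psph* (7.62) to *Trib3* (0.659) and *Chac1* (0.0730). Neighbours in this order overlapped between lines except for *Psph* and *Trib3*. In BCR-ABL1 lines *Phgdh* (303 TPM) and *Atf4* (288) came first, followed by *Shmt2* (213), *Psat1* (92.2), *Asns* (89.8), *Mthfd2* (75.0), *Ddit3* (15.5), *Psph* (14.3), *Trib3* (9.02) and *Chac1* (6.71). Here *Shmt2* and *Psat1*, *Mthfd2* and *Ddit3*, and *Psph* and *Trib3* did not overlap, whereas the other neighbours did. Even at their BCR-ABL1 level, *Trib3* and *Chac1* were thus the least abundant of the 10 mRNAs.

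These genes varied widely among the EV lines. The SD of log2 CPM over the 6 EV lines had a median of 0.72 over the 10 genes, beside 0.33 over all tested genes. In BCR-ABL1 lines the medians were 0.22 and 0.17. Of the 10 genes 9 had a larger SD among EV than among BCR-ABL1 lines, as did 80.7% of all tested genes. *Chac1* was the exception (0.643 against 0.658), at EV counts of 1 to 10, where the SD depends on the prior count. In CPM it spanned 9.40-fold among EV and 2.80-fold among BCR-ABL1 lines. *Asns* spanned 25.5-fold between its lowest and highest EV line against 3.01-fold among BCR-ABL1 lines, and *Phgdh* 5.74-fold against 1.21-fold. EV 2C was the highest EV line for 7 of the 10 genes, which was so for 24.6% of all tested genes. EV 2A and 2B were both below the EV lines of mouse 1 for 7 genes, against 29.8% of all tested genes. *Atf4*, *Phgdh*, *Psat1*, *Shmt2* and *Mthfd2* showed both, as did 9.11% of all tested genes. The EV lines that were low for these genes, 2A and 2B, were those with the high *Rag1* and *Cd79b* values given above, and the part of that difference in the result was not tested.

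**Figure D3:**
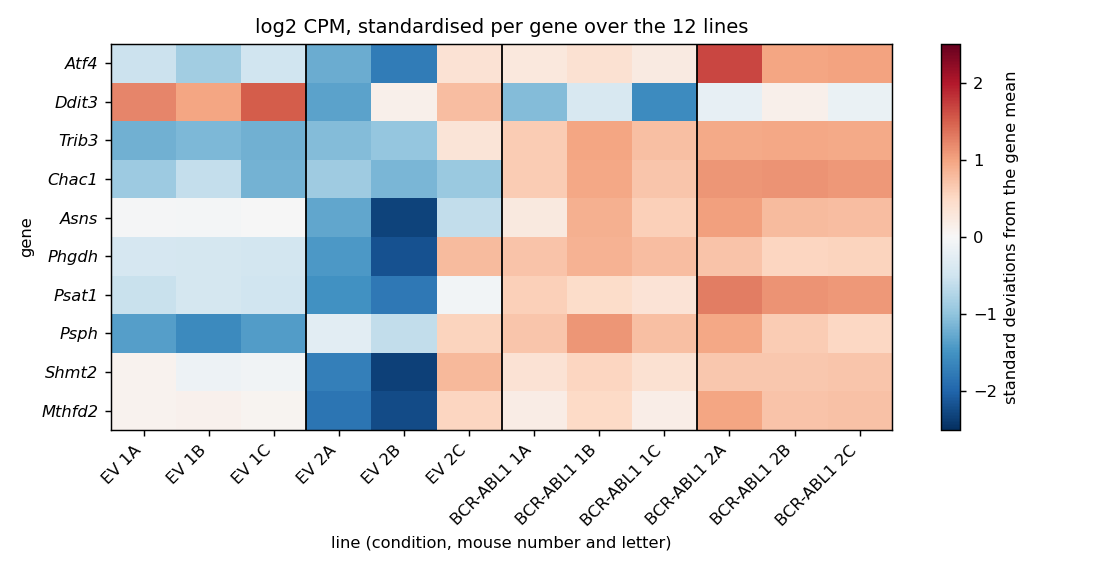
Log2 CPM of each gene in the 12 lines, standardised per gene, so that colours show standard deviations from the mean of that gene (red above, blue below). Columns are lines in the order EV mouse 1, EV mouse 2, BCR-ABL1 mouse 1 and BCR-ABL1 mouse 2, separated by black lines. EV 2A and 2B are the lowest lines for *Phgdh*, *Psat1*, *Shmt2* and *Mthfd2*, EV 2C is above the gene mean for *Phgdh*, *Shmt2* and *Mthfd2*, and *Ddit3* is highest in the EV lines of mouse 1.

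To see whether the difference held in each animal, lines were fitted in 4 groups by mouse and condition. Within mouse 1, 3 genes rose and 0 fell (11.9% of all tested genes were called higher and 7.44% lower). They were *Trib3* (log2 fold change 5.37, SE 0.28, glmTreat FDR = 0.00103), *Chac1* (5.48, SE 0.60, glmTreat FDR = 1.33e-05) and *Psph* (1.15, SE 0.07, glmTreat FDR = 0.00173). Within mouse 2, 4 genes rose and 0 fell (6.25% of all tested genes higher, 6.66% lower). They were *Trib3* (2.98, SE 1.17, glmTreat FDR = 0.0274), *Chac1* (7.16, SE 0.25, glmTreat FDR = 1.11e-05), *Asns* (4.02, SE 1.00, glmTreat FDR = 0.00205) and *Psat1* (1.49, SE 0.37, glmTreat FDR = 0.00689). Of the 10 genes, *Trib3* and *Chac1* were called in both animals in this fit, for which the share over all tested genes is not given. The *Trib3* call within mouse 2 was lost without EV 2A or 2B or BCR-ABL1 2A, 2B or 2C (glmTreat FDR between 0.0518 and 0.0697). A fit to the mouse 2 lines alone gave 3.00 for *Trib3* (glmTreat FDR = 0.175). *Chac1* and *Asns* were called in separate fits to the lines of each animal. In the 4-group fit *Asns* within mouse 1 was 1.29 (SE 0.38, glmTreat FDR = 0.272) and *Psat1* 0.67 (SE 0.05, glmTreat FDR = 0.467). With mouse as a replicate block the same 4 genes were called as without it, among them *Asns* at 2.64 (glmTreat FDR = 0.0226) and *Trib3* at 4.09 (glmTreat FDR = 0.00242), where 7.49% of all tested genes were higher and 7.18% lower.

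The difference between the animals was tested as the mouse by condition interaction (edgeR's glmQLFTest), which called 16.9% of all tested genes of either direction (6.1% higher in mouse 2, 10.8% lower) and 2 of the 10, a share near that over all tested genes. The BCR-ABL1 effect on *Asns* was larger in mouse 2 by 2.73 on the log2 scale (SE 1.07, FDR = 0.0449), and that on *Psph* was smaller (-0.77, SE 0.20, FDR = 0.0194). The *Asns* call was lost in 10 of 15 alternatives (FDR up to 0.108) and the *Psph* call in 6 of 15 (FDR up to 0.0596). The animals were then compared within each condition. EV lines of mouse 2 against mouse 1 gave -2.20 for *Asns* (SE 0.99, glmTreat FDR = 0.0622) and 0.69 for *Psph* (SE 0.18, glmTreat FDR = 0.447), while BCR-ABL1 lines gave 0.52 (SE 0.41) and -0.07 (SE 0.09). In these comparisons between animals 0 of the 10 genes were called. The shares over all tested genes were 8.23% higher and 2.02% lower among EV lines, and 1.5% and 1.16% among BCR-ABL1 lines.

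Within mouse 2 the count depended on which EV line was left out. EV 2C is the highest EV line for 7 of the 10 genes, so leaving it out raises their differences by construction. By *Rag1* and *Cd79b* EV 2A and 2B lie farther from the other lines, while by *Ebf1* EV 2C lies apart from the other EV lines. The markers thus do not single out which EV line of mouse 2 is the unusual one. Without EV 2A or 2B, 3 genes were called higher in mouse 2 in each case, for which the share over all tested genes is not given. These counts can therefore not be weighed against the 8 found without EV 2C. In the fits without EV 2A or 2B, *Phgdh* was at 0.60 or 0.49 on the log2 scale and *Shmt2* at 0.63 or 0.54. *Mthfd2* was at 0.82 or 0.75 and *Trib3* at 2.51 or 2.48 (glmTreat FDR for *Trib3* 0.0559 or 0.0518). Without EV 2C, 8 of the 10 genes were called higher in that animal, all but *Ddit3* (0.16) and *Psph* (0.58), where 13% of all tested genes were called higher and 14% lower. *Asns* was at 5.17, *Phgdh* at 2.02, *Psat1* at 1.96, *Shmt2* at 1.93, *Mthfd2* at 1.91 and *Atf4* at 1.01 on the log2 scale (largest glmTreat FDR = 0.000588, for *Atf4*). *Trib3* came to 5.28, close to its value in mouse 1. EV 2A and 2B were then lower than the EV lines of mouse 1 in 5 genes (4.06% of all tested genes were called lower and 12.8% higher): *Asns* (-3.35), *Mthfd2* (-1.43), *Shmt2* (-1.41), *Phgdh* (-1.14) and *Psat1* (-0.80). The interaction called 7 of the 10 genes higher in mouse 2 and 1, *Psph*, lower, beside 15.5% and 20.5% of all tested genes. Over both animals without EV 2C, 5 genes were higher (*Trib3*, *Chac1*, *Phgdh*, *Psat1* and *Psph*) and *Asns* lost its call (2.21, glmTreat FDR = 0.0601), where 8.83% of all tested genes were higher and 9.35% lower.

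The wider pathway was described by 7 lists of 102 genes, of which 92 were tested. In BCR-ABL1 lines 6 rose and 2 fell, and 77 had a positive log2 fold change, with a median of 0.52. As shares of the tested list genes these are 6.52% higher and 2.17% lower, beside 5.99% and 6.49% of all tested genes, and 83.7% positive, beside 48.3%. Read against these shares, 1 called gene in a list of 8 to 17, as given for several lists here, is near the background. Of the 9 genes of the eIF2α kinases, phosphatase subunits and GCN2 co-factors 0 were called by glmTreat (median 0.26). *Eif2ak4*, which encodes GCN2, was at -0.37 (SE 0.08, glmTreat FDR = 1) and *Eif2ak3*, which encodes PERK, at 0.13 (SE 0.16, glmTreat FDR = 1). Of 20 cytosolic aminoacyl-tRNA synthetase genes, which load tRNAs with amino acids, 19 had a positive value and 0 were called (median 0.42), with *Tars* at 0.91 (SE 0.17, glmTreat FDR = 0.0603) the nearest. Without EV 2C, 29 genes of all 7 lists were called higher (31.2% of those tested), among them 5 tRNA synthetase genes, where 8.83% of all tested genes were higher and 9.35% lower. Where EV 2C is the highest EV line, leaving it out raises the difference by construction. *Nars*, for example, was at 221 CPM in EV 2C and between 85.7 and 149 in the other EV lines. The 29 therefore cannot be read against 8.83% as a result about the lists. With any other line left out instead, 4 to 7 were called higher (4.3% to 7.53% of those tested), where 5.29% to 6.66% of all tested genes were higher.

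**Figure D4:**
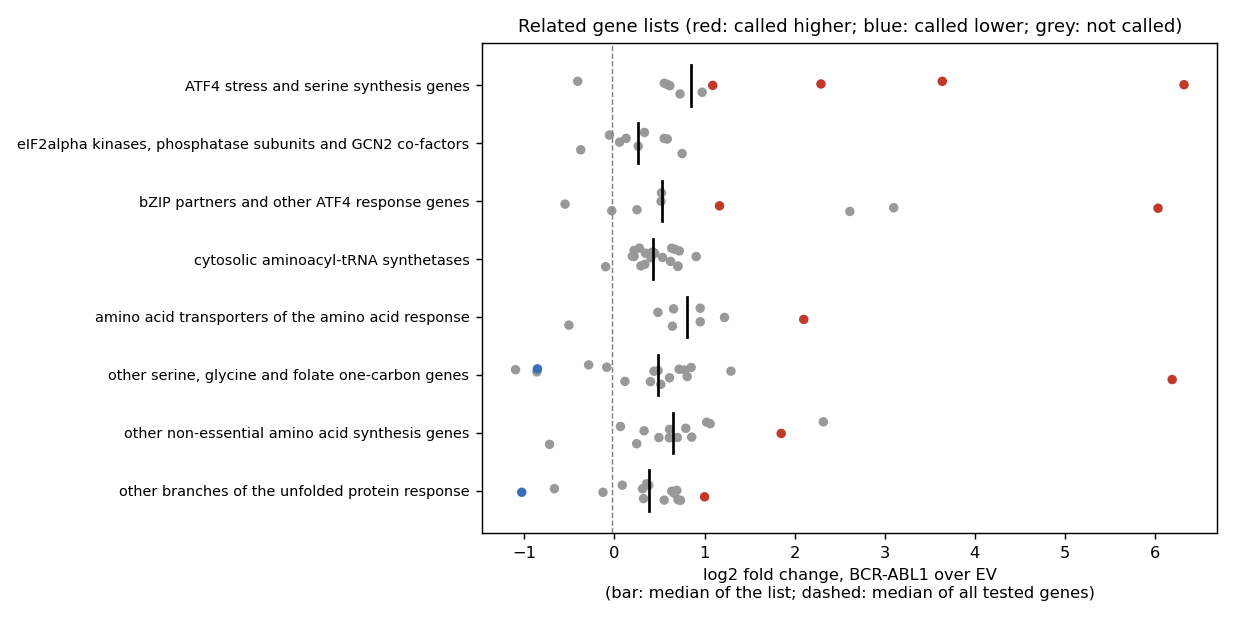
Log2 fold change of BCR-ABL1 over EV for the 10 genes and for each tested gene of the 7 related lists. Each point is a gene, red where called higher, blue where called lower and grey otherwise. Bars are the list medians and the dashed line is the median of all tested genes. Every list has its median to the right of the dashed line, from 0.26 to 0.85, and most points are grey.

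Among 9 tested bZIP partners and other ATF4 response genes, 2 rose (median 0.52). *Jdp2*, a bZIP repressor gene, had 0 to 3 counts in EV lines and between 0.386 and 3.58 CPM in BCR-ABL1 lines, a ratio of summed counts of 76.0 (95% counting interval 38.3 to 177). *Eif4ebp1*, which encodes the translation inhibitor 4E-BP1, was at 24.4, 24.5 and 24.1 CPM in EV lines of mouse 1, at 19.0, 15.8 and 50.9 in those of mouse 2, and between 47.0 and 73.5 in BCR-ABL1 lines (log2 fold change 1.17, SE 0.25, glmTreat FDR = 0.0396). It thus had the same split of EV 2C from 2A and 2B as *Phgdh*. Its call was lost in 11 of 22 alternatives, and it was not called within mouse 1 (glmTreat FDR = 0.129) or mouse 2 (glmTreat FDR = 0.0957). *Atf3* (2.61, SE 0.78, glmTreat FDR = 0.0620) and *Nupr1* (3.10, SE 0.86, glmTreat FDR = 0.0541), both stress-induced regulators, did not pass over the 12 lines. In the 4-group fit *Atf3* was called within mouse 1 (4.93, glmTreat FDR = 5.81e-05) and within mouse 2 (2.15, glmTreat FDR = 0.00604), and its EV level was higher in mouse 2 than in mouse 1 (4.04, glmTreat FDR = 0.000800). Its effect differed between the lines of mouse 1 and those of mouse 2 (interaction -2.78, glmQLFTest FDR = 0.0179). *Atf3* was at most 0.0753 CPM in EV lines of mouse 1 and between 0.298 and 0.847 in those of mouse 2. At such low EV levels its fold changes depend on the prior count. *Nupr1* was called within mouse 1 (3.52, glmTreat FDR = 0.0297) and not within mouse 2 (2.96, glmTreat FDR = 0.0586). It was at 2.81 CPM in EV 2C, at most 0.368 in the other EV lines and between 1.42 and 9.76 in BCR-ABL1 lines. Of 8 tested amino acid transporter genes 1 rose (median 0.80): *Slc7a3*, a carrier of cationic amino acids, from a median of 0.233 to 1.76 CPM (2.102, SE 0.55, glmTreat FDR = 0.0341). Its call was lost in 8 of 21 alternatives.

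Of 17 other tested serine, glycine and folate genes 1 rose and 1 fell (median 0.48). *Gldc*, the decarboxylase of the glycine cleavage system, had 0 counts in the EV lines of mouse 1 and at most 10 in those of mouse 2, and was between 2.31 and 9.28 CPM in BCR-ABL1 lines (ratio of summed counts 86.5, 95% counting interval 51.4 to 159). EV 2A held 10 of the 14 EV counts, and without it the ratio was 273 (106 to 1002), an alternative chosen after the values were seen. In mouse 1 there were 684 counts in BCR-ABL1 lines against 0 in EV, and in mouse 2 the ratio was 29.4 (17.3 to 54.1). *Srr*, which encodes serine racemase, fell from a median of 14.9 to 8.14 CPM (-0.86, SE 0.07, glmTreat FDR = 0.0139), with no overlap. Of 14 tested genes of other amino acid synthesis 1 rose (median 0.66). It was *Bcat1*, the cytosolic branched-chain aminotransferase, at 38.4, 44.1 and 40.8 CPM in EV lines of mouse 1, at 12.6, 10.7 and 86.5 in those of mouse 2, and between 131 and 156 in BCR-ABL1 lines (1.85, SE 0.47, glmTreat FDR = 0.0230).

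The other branches of the unfolded protein response held 15 tested genes, of which 1 rose and 1 fell (median 0.38). *Xbp1*, the transcription factor gene of the IRE1 branch, rose from a median of 48.0 to 102 CPM (1.00, SE 0.11, glmTreat FDR = 0.00382). *Herpud1*, a gene of endoplasmic reticulum protein degradation, fell from a median of 529 to 273 CPM (-1.03, SE 0.18, glmTreat FDR = 0.0213). Neither overlapped between the conditions. The chaperone gene *Hspa5*, the usual marker of this response, was above all EV lines in all BCR-ABL1 lines but did not pass the 1.5-fold test (0.73, SE 0.14, glmTreat FDR = 0.245).

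Across the 12 lines, the genes whose log2 CPM ran most like the mean standardised log2 CPM of the 10 were *Nars* (Pearson r = 0.990), *Lars* (0.989), *Prelid3b* (0.988), *Tars* (0.985) and *Adam9* (0.985). Of these 5, 3 encode aminoacyl-tRNA synthetases. The correlations are over lines that share a mouse and a condition and are given as a description. The mean standardised value of the 10 genes was -1.52 in EV 2B and -1.26 in EV 2A, between -0.41 and -0.36 in the EV lines of mouse 1, 0.25 in EV 2C, between 0.31 and 0.63 in BCR-ABL1 lines of mouse 1 and between 0.72 and 0.92 in those of mouse 2. The value of EV 2C was nearer to each BCR-ABL1 line of mouse 1 than to any other EV line.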

How the data were processed

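Stranded total RNA libraries of 12 lines were sequenced with paired ends. The authors counted reads per gene and deposited the raw counts of 51826 genes, without normalization and without pooling of lines. Their processing notes list FastQC 0.11.5, Trimmomatic 0.36, TopHat2 2.1.1, Bowtie2 2.3.2, featureCounts 1.5.3, R 3.6.1, edgeR 3.18.1 and GRCm38. The annotation and the strand setting are not given in the sources used here.

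The deposited counts were analysed with edgeR 4.0.16 and limma 3.58.1, under R 4.3.3, and plotted with matplotlib 3.10.9. Symbols and positions are from GENCODE M21 (GRCm38), where 51633 identifiers were found, and promoters from RefSeq GRCm38.p6. Genes passing filterByExpr were normalized by TMM and tested by glmTreat on the quasi-likelihood fit against a 1.5-fold change, with Benjamini-Hochberg FDR over 15038 genes and a threshold of 0.05. Standard errors are of the difference of mean log2 CPM (prior count 2). Single genes were also tested by two-sided exact permutation over all 924 splits of the 12 lines. These splits ignore the mouse. Over the 400 splits within mouse the smallest possible p is 0.005. That exact permutation p was 0.005 for *Atf4*, *Trib3*, *Chac1*, *Asns*, *Psat1* and *Mthfd2*. It was 0.01 for *Psph*, 0.02 for *Phgdh* and *Shmt2* and 0.065 for *Ddit3*. P-values measure the spread between lines, which share 2 mice, and intervals of count ratios cover counting error only. TPM used summed exon lengths. Similar sequences were searched with blastn 2.17.0. The fit was tested on simulated data.

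The genes named are the 10 themselves, the called genes of the 7 related lists (at most 4 per list and direction) and the 5 most alike in pattern, where the average log2 CPM was 1 or more. *Tars*, *Atf3*, *Nupr1*, *Hspa5*, *Eif2ak3*, *Eif2ak4*, *Cct6a* and *Mars* were named after their values were seen. Among the markers, so were *Rag1*, *Cd79b*, *Ebf1*, *Vpreb1*, *Igll1*, *Mzb1*, *Jchain* and *Prdm1*. A further marker of the B lineage list is not reported here and was left out of its sum. The 10 genes, the lists and the motifs were chosen with earlier results of these data known. Alternatives were RLE scaling, testing every gene with a count, requiring 1 CPM in 6 or more lines, a likelihood ratio fit, DESeq2 1.42.0, testing for any change, a replicate block by mouse or by line pair, each mouse alone and leaving out each line.

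EV and BCR-ABL1 lines share the names 1A to 2C, in which the digit is the mouse by the labels, so the mouse pairs the samples. The methods speak of independent experiments, but the labels do not tie the letters to them, so the letters were not taken as pairs in the main fit. After the mean of each condition was removed, lines of the same mouse in the 2 conditions correlated at 0.0853 to 0.240 and those of different mice at -0.203 to -0.0636.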

Additional observations from a re-analysis of the deposited data

Results flagged for a closer look

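In groups of 6 lines, a line was marked where its gap to the nearest other line was too large a part of the range of the group by Dixon's 95% critical value. This was so in 5 of 36 groups over the 18 genes. The critical value marks about 1 in 20 groups when all values come from a single normal population. Here each group pools 3 lines of each of 2 mice, and the groups share lines, so the 5 cannot be read against that rate. EV 2C stood above the other EV lines for *Trib3* (3.14 CPM) and *Eif4ebp1* (50.9 CPM), EV 1B for *Chac1* (0.144 CPM, 10 counts) and EV 2A for *Gldc* (0.307 CPM, 10 counts). BCR-ABL1 1B stood above the other BCR-ABL1 lines for *Gldc* (9.28 CPM).

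The interaction of mouse and condition was called for *Asns* (2.73 on the log2 scale, mouse 2 minus mouse 1) and *Psph* (-0.77). The same test called 16.9% of all tested genes. Its replicates are lines and not animals, so a difference between animals in general cannot be inferred from it. The *Asns* interaction lost its call in 10 of 15 alternatives and that of *Psph* in 6 of 15.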

How the results depend on the processing

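Of 1713 alternative values over 108 results, 1480 kept their direction and side of the threshold, 69 lost a call, 40 gained one, 110 counts or values moved and 14 changed sign. For these the cause was not tested, except that tests against no change set a lower bar and fits without a line or an animal use fewer samples.

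Of the 10 genes, the number called higher was 4, against 7 in the test against no change. It was 2 with line pair as replicate block (*Trib3*, FDR 0.00399, and *Chac1*, 0.000410, while *Asns* at 0.0983 and *Psat1* at 0.0716 lost the call). It was also 2 in the lines of mouse 2 alone, and 2 to 5 without each line in turn. Of all tested genes 5.99% were called higher, against 22.5%, 6.14%, 3.99% and 5.29% to 8.83% in these settings. Of the 10 genes 0 were called lower, and 1 (*Ddit3*) in the lines of mouse 1 alone, where 12.2% of all tested genes were lower. The mouse block changed no call among the 10 genes and the 8 named list genes. *Chac1* kept its call in all 22 alternatives.

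Of the related lists, 6 genes were higher, against 54 tested against no change (where 22.5% of all tested genes were higher), 24 in mouse 1 alone (16.3%) and 4 to 29 without each line, the 29 without EV 2C (8.83%). Leaving out EV 2C raises the difference of each gene that is highest in that EV line. The number lower was 2, against 1 with no gene filter, the likelihood ratio fit, DESeq2 or the line pair block, 9 against no change (25.9% of all tested genes lower), 7 in mouse 1 alone (12.2%), 0 in mouse 2 alone (2.65%) and 1 to 2 without each line.

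The interaction called 1 gene higher and 1 lower, against 5 and 2 with no gene filter and 2 higher with a CPM of at least 1. Without each line it called 0 to 7 higher and 0 to 1 lower. With no gene filter, 5 genes were higher within mouse 1 and 7 within mouse 2, and 1 was higher and 1 lower in EV lines of mouse 2 against mouse 1. Without each line these counts were 3 to 5, 3 to 8, 0 to 1 and 0 to 5. The highest count came without EV 2C in each, except the 1 higher among EV lines, which came without EV 2A or 2B. The fit with no gene filter gave far smaller FDR values at similar log2 fold changes. For the *Asns* interaction it gave 1.87e-38 at 2.77, against 0.0449 at 2.73 in the main fit (glmQLFTest). The cause was not tested, and the extra calls of that fit carry this limit. For these comparisons, shares over all tested genes are given for the main fit and without EV 2C only. Within mouse 1 without EV 2C, 15.1% of all tested genes were higher and 10.7% lower, and the other shares are given above. The counts in every other setting, among them those with no gene filter, cannot be told from the background. Nothing is concluded from them.

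The sign changed for *Ddit3* in the lines of mouse 2 alone (0.00028) and, within mouse 2, with RLE (0.010), no filter (0.060) and 5 left-out lines (range over all lines -0.21 to 0.16, with 0.016, 0.0079, 0.021 and 0.0097 besides). The *Phgdh* interaction went from -0.14 to 0.98 without EV 2C (range -0.54 to 0.98). In EV lines of mouse 2 against mouse 1, *Atf4* turned to 0.030 and 0.097 and *Phgdh* to 0.27 and 0.38 without EV 2A or 2B (ranges -0.32 to 0.097 and -1.14 to 0.38), and *Chac1* to 0.33 without EV 1B (-1.22 to 0.33). RLE moved the median of all genes from -0.02 to -0.0016. Depth limits *Chac1*, *Jdp2* and *Gldc* in EV lines, with 0 to 10 counts. *Atf3* and *Nupr1* were also low in EV lines, down to 0.0144 and 0.0397 CPM.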
